A study of Homo sapiens with 9 samples.

Results

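The mRNA of HSD17B10 and of 8 of its partner genes in mitochondrial RNA processing was followed in OVCAR3, an established human ovarian carcinoma cell line. The 9 genes, HSD17B10, TRMT10C, ELAC2, TFAM, POLRMT, LRPPRC, SLIRP, TRNT1 and MTPAP, were found by their exact symbols among the 58735 genes of the deposited tables, and all 9 passed the filter on low counts. HSD17B10 was picked because its level differed from the control in these same libraries, so that difference is described below without a test. The partners were picked for their known roles, with earlier results of these data already known. The cells carried a scramble short hairpin RNA (called scramble), a hairpin against GPX3 numbered 76 by the authors (sh76) or one numbered 78 (sh78), with 3 libraries each after 72 h. GPX3 encodes glutathione peroxidase 3, a secreted enzyme that reduces peroxides. All groups shared the wild-type genotype label and RPMI 1640 medium with fetal bovine serum and bovine insulin. There was 1 cell line and 1 control hairpin, and the number of separate transductions was not given in the sources used here, so p-values measure the spread between these libraries only.

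Human mitochondria transcribe their small circular genome into long precursors in which tRNAs sit between the mRNAs and rRNAs. Cutting out the tRNAs releases the RNAs on either side. The cut before each tRNA is made by mitochondrial RNase P, a protein enzyme built from TRMT10C, HSD17B10 and PRORP, and the cut after it by ELAC2. HSD17B10 has a further life as a metabolic enzyme, a short-chain dehydrogenase that oxidizes an intermediate of isoleucine breakdown. Its loss of function is known as a cause of an inherited mitochondrial disease.

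The libraries held 14652965 to 21327562 counts. GPX3, the targeted gene, was at 173, 109 and 117 CPM (counts relative to the library total, scaled for library composition) with scramble, 55.2 to 56.8 CPM with sh76 and 28.3 to 35.3 CPM with sh78. Every library with a GPX3 hairpin was thus lower than every control. Summed markers of ovarian and other epithelial cells (9 genes such as PAX8, MUC16 and EPCAM) were at 10085 to 10464 CPM with scramble, 9291 to 9855 CPM with sh76 and 8495 to 8841 CPM with sh78. KRT8, a keratin, went from a mean of 5562 CPM with scramble to 3878 CPM with sh78, a drop larger than that of the sum. Of the 9, PAX8 fell with sh76 (log2 fold change −0.28, adjusted p = 0.0196), and KRT8 (−0.52, adjusted p = 0.00259) and EPCAM (−0.33, adjusted p = 0.00387) fell with sh78. Of all genes tested, 2.16% fell with sh76 and 2.56% with sh78. Only 2 of the 9 had values above 0 with sh76 and 3 with sh78, and the medians were −0.17 and −0.05. Above 0 with both were KRT7 (0.24 with sh76 and 0.16 with sh78, adjusted p = 0.325 and 0.565) and MUC16 (0.18 and 0.06). PAX8 was above scramble with sh78 only (means of 960 and 902 CPM). Between the hairpins PAX8 was higher with sh78 (log2 fold change 0.37, adjusted p = 0.00386), where 3.7% of all genes were called. The lowest value with sh76 was that of WT1 (−0.58), which was not called. With the replicate number as a block, 2 of the 9 were called higher and 6 lower with sh76, and 1 higher and 3 lower with sh78. The higher ones were KRT7 and MUC16 with sh76 and KRT7 with sh78. This blocked fit called 20.4% of all genes with sh76 and 19.9% with sh78, in either direction. Summed markers of fibroblasts, immune cells and endothelium (7 genes, 4 of them past the filter) were at 35.0 to 61.0 CPM, and CD68, a macrophage marker, had 0 or 1 count in every library. Of these 7, COL1A1, a collagen, was called higher with both hairpins under the block (adjusted p = 0.0137 and 0.00496) and with neither without it. The part of these marker differences in the results below was not tested. In bulk RNA, fewer cells of a type and less RNA per cell cannot be told apart.

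HSD17B10 mRNA was about 2.5-fold higher with either hairpin than with scramble, and the hairpins did not differ detectably from each other. HSD17B10 (ENSG00000072506, chromosome X, 53431258 to 53434373, minus strand, GRCh38) was at 39.8, 38.5 and 38.9 CPM in the 3 scramble libraries. It was at 102.5, 91.5 and 101.7 CPM with sh76 and at 96.0, 101.6 and 89.5 CPM with sh78. The lowest hairpin library thus lay far above the highest control, and the scramble libraries were close to each other (39.1 ± 0.67 CPM, SD, n = 3, against 98.6 ± 6.16 and 95.7 ± 6.04 CPM with the hairpins). On the log2 scale the difference was 1.34 with sh76 and 1.29 with sh78, that is, 252% of the scramble level (95% interval 226% to 282%) and 245% (219% to 274%). These values describe the contrast by which the gene was picked, and nothing is read from the fact that its groups did not overlap, as those of 10.8% and 10.2% of all genes did not in this direction. Counting from the highest log2 fold change, HSD17B10 stood at rank 86 with sh76 and rank 78 with sh78 of the 17023 genes tested.

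The difference between the hairpins was not itself the ground on which the gene was picked, and it was tested. Picking by the level against scramble can favour genes whose hairpin groups agree, so this test is not wholly free of the choice. For sh78 against sh76 it came to −0.04 on the log2 scale (SE 0.07, 95% interval −0.20 to 0.11, adjusted p = 0.844), with the 6 libraries overlapping. The interval bounds the sh78 level between 87.3% and 108% of the sh76 level. GPX3 itself was lower with sh78 than with sh76 (log2 fold change −0.86). By replicate number, which the libraries of the 3 groups share, HSD17B10 was higher than in the matching control in 6 of 6 pairs, by 1.25 to 1.39 with sh76 and 1.20 to 1.40 with sh78 on the log2 scale. These pairs repeat the contrast by which the gene was picked, so their direction is a description and no further evidence. Both comparisons rest on the same 3 scramble libraries. With this 1 control hairpin, a higher level with the GPX3 hairpins and a lower level with the scramble hairpin cannot be told apart.

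The tested neighbours of HSD17B10 on chromosome X did not pass the test without the replicate block. AC233728.1, which overlaps HSD17B10, had 1 to 13 counts, and AC233728.2, the nearest at higher coordinates, had 0 counts. Neither was tested. SMC1A and HUWE1, the latter 97723 bases away, were added after their values had been seen. RIBC1, a microtubule-associated gene that ends beside the end of HSD17B10 on the other strand, had a log2 fold change of 0.13 with sh76 (adjusted p = 0.79) and 0.13 with sh78 (adjusted p = 0.811). For SMC1A, a cohesin subunit, the values were 0.00 and 0.02. For HUWE1, a ubiquitin ligase, they were 0.13 (adjusted p = 0.49, in a fit blocked on replicate numbers 0.0238) and 0.01, and −0.12 between the hairpins (adjusted p = 0.555, with the block 0.0296). The libraries carry no strand, but no other annotated gene shared exon bases with HSD17B10.

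**Figure D1:**
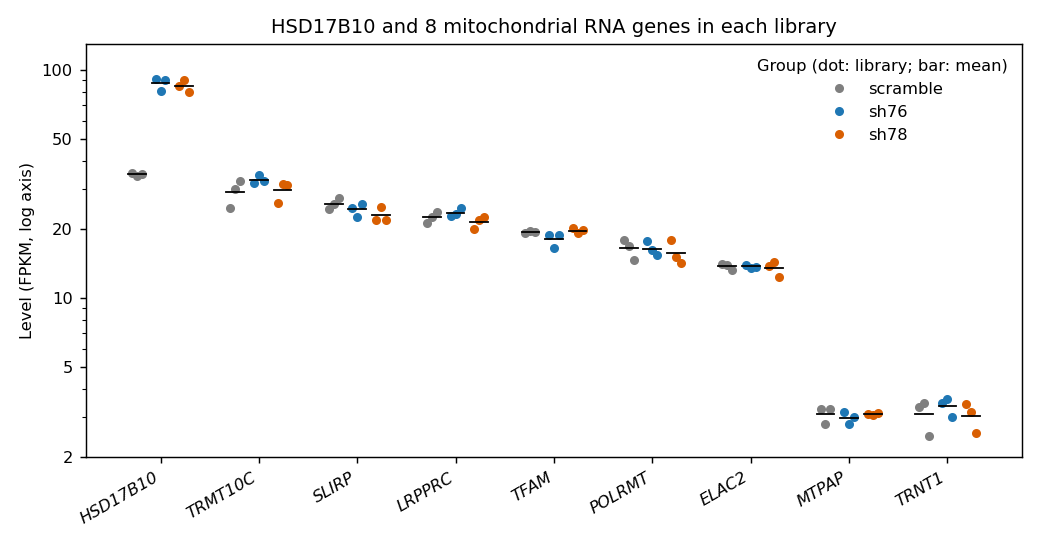
Level of each of the 9 genes (FPKM, which divides counts by gene length and library depth, log axis) in every library; dots are libraries, bars group means. HSD17B10 is at about 35 FPKM in the 3 scramble libraries and at 79.7 to 91.0 in the 6 hairpin libraries, while the groups lie close together for the other 8 genes.

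The genes whose pattern over the 9 libraries was most like that of HSD17B10 were DYNLRB1 (Pearson r of log2 CPM 0.99), DDA1 (0.985), TMED4 (0.985), KLHDC3 (0.974) and DMTN (0.974), the 5 highest among 9686 protein-coding genes at 10 CPM or more. They were chosen for this likeness, so their values are a description, and all r share the same 9 libraries. DYNLRB1, a light chain of the dynein motor, was at 38.0, 43.9 and 40.7 CPM with scramble, 82.3 to 88.5 CPM with sh76 and 86.5 to 89.96 CPM with sh78. The log2 fold changes of DYNLRB1 were 1.07 with sh76 and 1.11 with sh78. TMED4, a membrane protein of the early secretory pathway, had 0.67 and 0.62. DMTN, an actin-bundling protein, had 0.78 and 0.69, DDA1, a part of a ubiquitin ligase, 0.48 and 0.44, and KLHDC3, a kelch-repeat protein, 0.41 and 0.43. In each of the 5 the values of the 6 hairpin libraries lay above the 3 controls, and the sh78 against sh76 difference stayed between −0.09 and 0.04. For the partners of HSD17B10, r lay between −0.49 (SLIRP) and 0.34 (TRMT10C). Where these values stand among the 9686 genes was not examined, so they set the partners apart only from the 5 chosen for likeness.

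**Figure D2:**
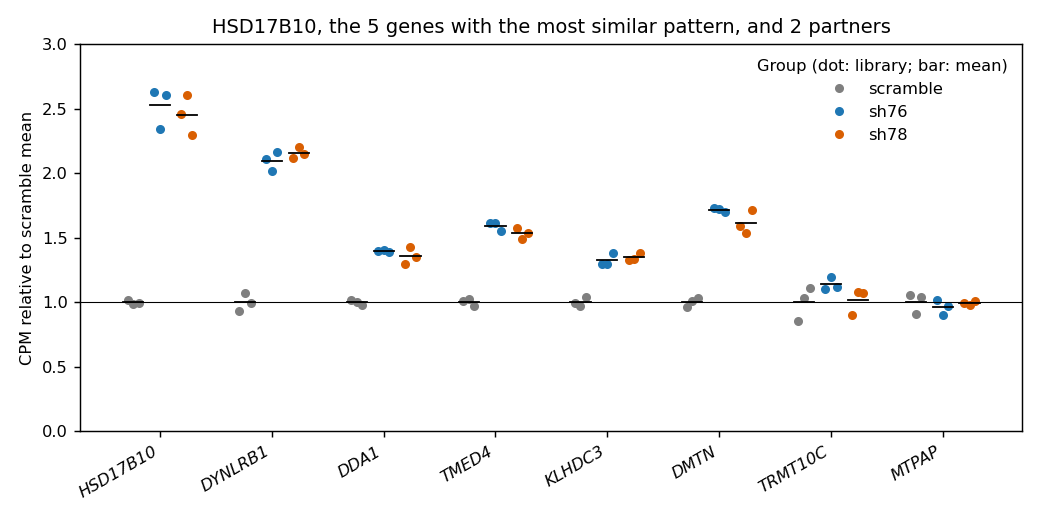
CPM of HSD17B10, of the 5 genes most like it and of TRMT10C and MTPAP, divided by each gene's scramble mean; dots are libraries, bars group means. The first 6 genes are above 1 in all 6 hairpin libraries, with DYNLRB1 nearest to HSD17B10 in size, and the libraries of TRMT10C and MTPAP scatter around 1.

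A stretch of 7 bases, GTCGCCC, that an earlier scan of 3′ UTRs picked from these same fold changes lies in the 3′ UTR of HSD17B10 and of 4 of the 5 genes most like it (DYNLRB1, DDA1, TMED4 and DMTN, not KLHDC3). Of the 8 partners, 1 (MTPAP) carries the same bases, and it passed no test. The sites of HSD17B10 and of the 2 genes nearest to it in pattern are shown because they let the surrounding bases be compared between genes that moved together. Each runs 5′ to 3′ on the transcript strand, from GENCODE 29 transcripts on GRCh38, with GTCGCCC in capitals. The capitals lie at chrX:53431292-53431298 (minus strand) in HSD17B10, chr20:34540906-34540912 (plus) in DYNLRB1 and chr19:17319700-17319706 (plus) in DDA1.
HSD17B10: actgcctaccaGTCGCCCtctgtgcctaa
DYNLRB1: cagttcactttGTCGCCCttggagaaagc
DDA1: tctgctcctcgGTCGCCCacccgcctgcc
The longest run that includes the 7 bases was GTCGCCCT, 8 bases, between HSD17B10 and DYNLRB1, and DDA1 shared only the 7 bases with either. The 7 bases occur in the annotated 3′ UTRs of 811 of 19121 protein-coding genes (4.24%). Among the genes tested, 46 of the 684 carriers were called higher with sh76 (6.73%, against 1.21% of 12942 genes without), and 60 with sh78 (8.77% against 1.87%). Because the bases were picked on these contrasts, these shares describe the choice and are no independent evidence. For sh78 against sh76, 1.75% of the carriers and 2.43% of the others were called higher. A match says nothing of whether the site is used.

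None of the 8 partners passed the test with either hairpin or between the hairpins without the replicate block, whose calls stand with each gene below. With sh76, 0 of 8 were called at an adjusted p under 0.05, where 3.58% of all genes tested were called. With sh78 it was 0 of 8 against 4.41% of all genes, and for sh78 against sh76 0 of 8 against 3.7%. For so few genes a count of 0 lies close to these background shares and is no result by itself, and the bounds on each gene are given instead. DESeq2 called 0 of 8 in each comparison, where it called 851, 972 and 845 of all genes. It was given all 58735 genes and used its own filter, so these counts are not out of the 17023 genes of edgeR. At an unadjusted p under 0.05, edgeR also gave 0 of 8 in each. Many other genes had a lower edgeR p than any partner. The lowest unadjusted p of the 8 was 0.0836 with sh76 (TRMT10C, rank 3933 of 17023 genes). It was 0.0545 with sh78 (SLIRP, rank 3111) and 0.0555 between the hairpins (LRPPRC, rank 2909). The median log2 fold change of the 8 was 0.00 with sh76, −0.02 with sh78 and −0.08 between the hairpins, beside 0.01, 0.01 and 0.00 over all genes tested. The 95% intervals of all 8 lay between −0.26 (MTPAP) and 0.45 (TRNT1) with sh76 and between −0.34 (SLIRP) and 0.31 (TRNT1) with sh78, so that they held no change as large as that measured for HSD17B10.

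**Figure D3:**
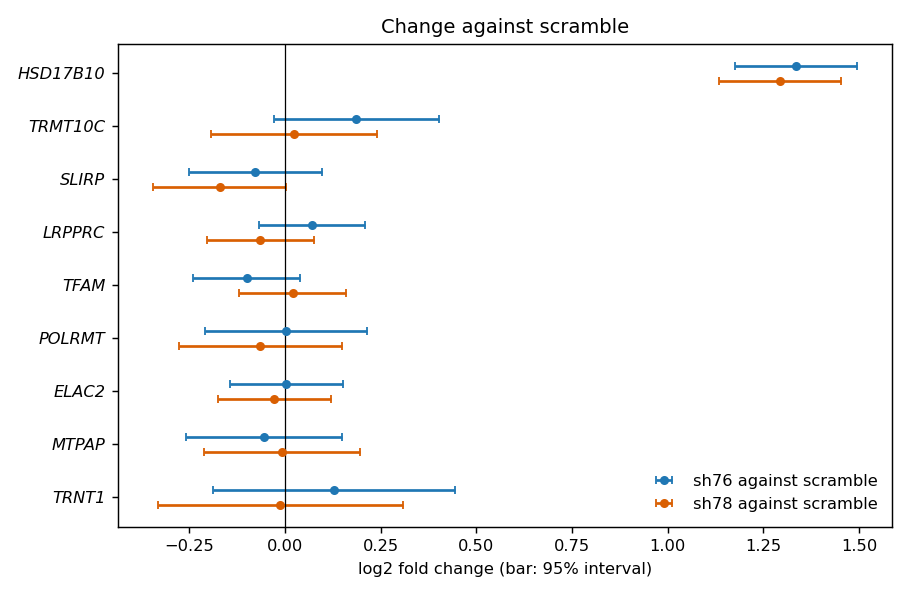
The log2 fold change against scramble of the 9 genes for sh76 and sh78; points are estimates of edgeR, bars 95% intervals. The intervals are from the fit without the replicate block. Those of HSD17B10 (a description, since this contrast picked it) begin above 1.1, and those of the 8 partners include 0. With the block, TRMT10C with sh76 (edgeR adjusted p = 0.0187) and SLIRP with sh78 (0.0425) were called.

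TRMT10C is the partner that binds HSD17B10 in a tight complex, which methylates tRNAs and holds them for cutting. TRMT10C (chromosome 3, 101561862 to 101566446) was at 47.2, 57.2 and 61.5 CPM with scramble, 60.8, 66.1 and 62.0 CPM with sh76, and 49.8, 59.8 and 59.2 CPM with sh78. The first scramble library was the lowest of the 9, and the sh76 libraries were close together and above every sh78 library. TRMT10C thus had a log2 fold change of 0.19 with sh76 (95% interval −0.03 to 0.40, adjusted p = 0.362) and 0.02 with sh78 (−0.19 to 0.24, adjusted p = 0.942). Between the hairpins it was −0.16 (adjusted p = 0.47); non-overlap in this direction was seen in 10.9% of all genes. With the replicate number as a block, TRMT10C was called with sh76 (adjusted p = 0.0187) and between the hairpins (adjusted p = 0.048), in a fit that called 20.4% and 18.3% of all genes.

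Because HSD17B10 and TRMT10C sit in 1 complex, the ratio of their mRNAs was taken per length. HSD17B10 FPKM divided by TRMT10C FPKM came to 1.43, 1.14 and 1.07 for scramble, to 2.85, 2.34 and 2.78 for sh76, and to 3.26, 2.87 and 2.56 for sh78. All 6 hairpin libraries lay above the controls, a direction that the choice of HSD17B10 largely fixes. The nuclease subunit of the same enzyme, PRORP, is listed under its older symbol KIAA0391. KIAA0391 had a log2 fold change of 0.08 with sh76 (adjusted p = 0.863) and 0.10 with sh78 (adjusted p = 0.812). Its level is uncertain, because it shares 2858 of its 6982 exon bases with an overlapping annotated gene, AL121594.1, and reads there could be lost to both.

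ELAC2, the nuclease that cuts behind each tRNA, was at 90.1, 89.3 and 84.4 CPM with scramble, 89.8, 87.1 and 87.6 CPM with sh76, and 88.0, 91.5 and 79.3 CPM with sh78. The groups overlapped throughout. For ELAC2 the log2 fold change was 0.00 with sh76 (95% interval −0.14 to 0.15, adjusted p = 0.989) and −0.03 with sh78 (−0.18 to 0.12, adjusted p = 0.893). The intervals hold levels between 88.5% and 111% of scramble.

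POLRMT, the RNA polymerase that makes the mitochondrial precursors, was at 92.7, 86.9 and 75.4 CPM with scramble, 91.9, 84.3 and 79.3 CPM with sh76, and 92.8, 77.6 and 73.2 CPM with sh78. The spread within each group was wider than any difference between the group means. POLRMT had log2 fold changes of 0.00 (adjusted p = 0.995) and −0.06 (adjusted p = 0.815). TFAM, which packages mitochondrial DNA and opens its promoters, was at 109, 111 and 109.7 CPM with scramble, 107, 94.4 and 106 CPM with sh76, and 114, 108 and 112 CPM with sh78. The sh76 libraries lay below all others, by a small margin for 2 of the 3, and non-overlap below scramble was seen in 11.7% of all genes. For TFAM the log2 fold change was −0.10 with sh76 (adjusted p = 0.471), 0.02 with sh78 (adjusted p = 0.922) and 0.12 between the hairpins (adjusted p = 0.4).

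LRPPRC and SLIRP form a complex that binds and steadies mitochondrial mRNAs. LRPPRC was at 209.9, 222 and 234 CPM with scramble, 226, 230.3 and 243 CPM with sh76, and 198, 215 and 224 CPM with sh78. The sh78 libraries lay below all those of sh76, as in 10.9% of all genes, while each hairpin group overlapped the controls. Between the hairpins the log2 fold change of LRPPRC was −0.14 (95% interval −0.28 to 0.00, adjusted p = 0.325, with the replicate block 0.0174). The blocked fit called 18.3% of all genes in this comparison. SLIRP was at 64.9, 68.7 and 72.2 CPM with scramble, 66.2, 60.1 and 68.7 CPM with sh76, and 58.3, 66.4 and 58.1 CPM with sh78. The sh78 library numbered 2 was within the scramble range, and the other two were below it. SLIRP had a log2 fold change of −0.08 with sh76 (adjusted p = 0.683) and −0.17 with sh78 (95% interval −0.34 to 0.00, adjusted p = 0.298, with the replicate block 0.0425), where the blocked fit called 19.9% of all genes. SLIRP over LRPPRC per length stood at 1.15 in each control library, at 0.968 to 1.09 for sh76 and at 0.964 to 1.15 for sh78. SLIRP shares 118 exon bases with SNW1 on the other strand, so a small part of its counts is uncertain.

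The 2 partners that finish RNA ends were the lowest. MTPAP, the polymerase that adds poly-A tails to mitochondrial mRNAs, was at 27.6, 23.8 and 27.3 CPM with scramble, 26.7, 23.6 and 25.4 CPM with sh76, and 26.1, 25.7 and 26.4 CPM with sh78. TRNT1, which adds the CCA end to tRNAs, was at 18.5, 19.2 and 13.7 CPM with scramble, 19.3, 20.2 and 16.7 CPM with sh76, and 19.1, 17.5 and 14.2 CPM with sh78. For both genes the groups overlapped. The log2 fold changes of MTPAP were −0.05 (adjusted p = 0.831) and −0.01 (adjusted p = 0.981), and those of TRNT1 0.13 (adjusted p = 0.716) and −0.01 (adjusted p = 0.982). TRNT1 had the widest intervals of the 8, reaching 79.4% to 136% of scramble, at 219 to 417 counts a library. It shares 595 exon bases with CRBN on the other strand.

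Compared per length, HSD17B10 was already the highest of the 9 genes in the controls, at 34.8 ± 0.584 FPKM (SD, n = 3). Then came TRMT10C (29.1 ± 3.98 FPKM), SLIRP (25.9), LRPPRC (22.6), TFAM (19.5), POLRMT (16.5), ELAC2 (13.8), MTPAP (3.11) and TRNT1 (3.08). In this order only TRMT10C and SLIRP, and MTPAP and TRNT1, overlapped their neighbour over the 3 libraries. With the hairpins HSD17B10 stood at 87.6 ± 5.60 FPKM (sh76) and 85.2 ± 5.46 FPKM (sh78), and the order of the group means was the same except that TRNT1 passed MTPAP with sh76.

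Beyond the members, 48 further genes of mitochondrial RNA metabolism were read from 6 lists: transcription, tRNA end cleavage, RNA stability and decay, FASTK and PPR proteins, tRNA modification, and rRNA modification. All 48 passed the filter on low counts, and none was called in any of the 3 comparisons by edgeR or DESeq2, where edgeR called 3.58%, 4.41% and 3.7% of all genes. At an unadjusted p under 0.05 there were 4 of 48 in each comparison. Over all 17023 genes, an edgeR p of 0.0836 stood at rank 3933 with sh76. With sh78 a p of 0.0545 stood at rank 3111, and between the hairpins one of 0.0555 at rank 2909. The share of all genes under 0.05 itself was not counted. The median log2 fold change was 0.00 with sh76, −0.00 with sh78 and −0.02 between the hairpins. With sh76 the values ran from −0.23 for NGRN, which helps build the mitochondrial ribosome, to 0.30 for FASTKD5, which acts where mRNAs lack a flanking tRNA (adjusted p = 0.141 and 0.145). With sh78 they ran from −0.30 for TEFM, the elongation factor of POLRMT, to 0.28 for METTL8, a tRNA methyltransferase (adjusted p = 0.323 and 0.247). The replicate block called 3, 3 and 4 of the 48, a smaller share than the 20.4%, 19.9% and 18.3% it called of all genes. For the genes just named its adjusted p was 0.0028 (FASTKD5 with sh76), 0.00849 (NGRN with sh76), 0.0751 (TEFM with sh78) and 0.0363 (METTL8 with sh78).

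**Figure D4:**
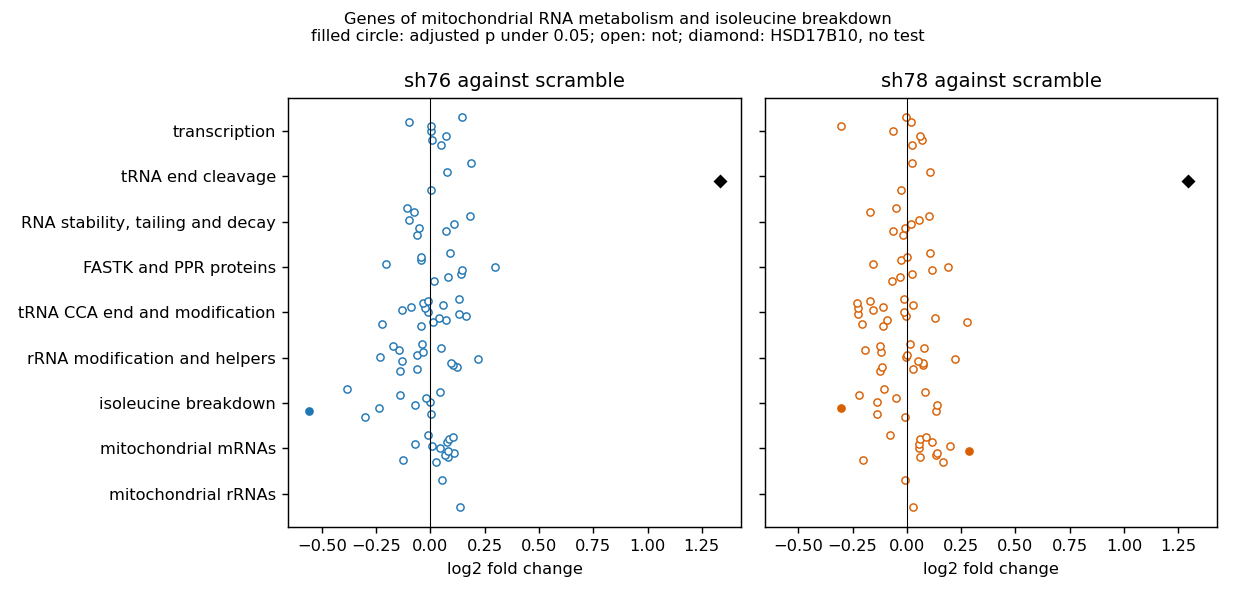
The log2 fold change against scramble of every tested gene of the mitochondrial RNA lists, of isoleucine breakdown and of the mitochondrial mRNAs and rRNAs; each circle is a gene, filled where the adjusted p is under 0.05, and the diamond is HSD17B10 (no test). Filled circles are BCAT1 with sh76 and BCAT2 and MT-CYB with sh78, and none of the circles comes near the diamond.

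Isoleucine breakdown, the pathway of the other role of HSD17B10, held 11 listed genes, of which 10 were tested. With sh76, 1 fell and 0 rose, and with sh78, 1 fell and 0 rose, where 2.16% and 2.56% of all genes tested fell. The medians were −0.11 and −0.08. The gene that fell with sh76 was BCAT1, the cytosolic transaminase of branched-chain amino acids. It was at 150.3, 143 and 143 CPM with scramble, 87.8, 102 and 106 CPM with sh76, and 155, 160.3 and 164 CPM with sh78. Only the sh76 libraries were low, and the sh78 libraries were above the controls by a small margin. Separation below the controls was seen in 11.7% of all genes with sh76, and above them in 10.2% with sh78. BCAT1 had a log2 fold change of −0.56 with sh76 (adjusted p = 0.000852), 0.13 with sh78 (adjusted p = 0.366) and 0.69 between the hairpins (adjusted p = 0.000247).

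The gene that fell with sh78 was BCAT2, the mitochondrial transaminase, at 56.1, 60.0 and 63.7 CPM with scramble, 50.8, 51.3 and 50.2 CPM with sh76, and 48.4, 50.8 and 46.8 CPM with sh78. The controls lay above all 6 hairpin libraries, a separation seen in 11.7% of all genes with sh76 and 11.2% with sh78. On the log2 scale the change was −0.30 with sh78 (adjusted p = 0.0338) and −0.24 with sh76 (adjusted p = 0.0958, with the replicate block 0.00214). The sh78 call was lost when scramble replicate 2 or 3, sh76 replicate 2 or any sh78 replicate was left out, with values between −0.34 and −0.26 and an adjusted p of up to 0.138, and when only the groups compared were fitted (adjusted p = 0.0689). The enzymes next to HSD17B10 in the pathway did not pass the test. ECHS1, which makes its substrate, had 0.04 and 0.08, and ACAT1, which splits its product, 0.00 and −0.14. The replicate block put 5 of the 10 past the threshold with sh76, where it called 20.4% of all genes, and 2 with sh78, a share close to the 19.9% of all genes there. All of them were lower. BCKDHA, a subunit of the branched-chain dehydrogenase, had 0 to 5 counts and was not tested. It shares 1660 of 2602 exon bases with an overlapping annotation, to which reads could be lost.

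The RNAs that the mitochondrial genome itself encodes took 4.24% to 4.67% of the counts with scramble, 4.48% to 4.91% with sh76 and 4.64% to 5.16% with sh78. Of the 13 mitochondrial mRNAs, 0 were called with sh76 and 1, MT-CYB, rose with sh78, where 1.85% of all genes tested rose. The medians of the 13 were 0.07 and 0.09. MT-CYB, a subunit of respiratory complex III, was at 2506, 2656 and 2616 CPM with scramble, 2656 to 2808 CPM with sh76 and 3077 to 3254 CPM with sh78. Every sh78 library was above all others, a separation seen in 10.2% of all genes against scramble and 10.9% against sh76. MT-CYB had a log2 fold change of 0.28 with sh78 (adjusted p = 0.00767), 0.08 with sh76 (adjusted p = 0.492) and 0.20 between the hairpins (adjusted p = 0.0522, with the replicate block 6.43e-05). The sh78 call held in 8 of 8 other fits and 9 of 9 that left out a library. The difference between the hairpins was called in 4 of 8 and 2 of 9. Neither of the 2 mitochondrial rRNAs was called. The replicate block called 1 of the 13 mRNAs higher with sh76, 6 with sh78 and 3 between the hairpins, beside 20.4%, 19.9% and 18.3% of all genes in either direction.

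The 22 mitochondrial tRNA genes, the parts of the precursors that RNase P and ELAC2 cut free, were added after their values had been seen. Poly-A selection leaves out most mature tRNAs, tRNA genes are short, and how reads that cross into a neighbouring gene were assigned is not given in the sources used here. Together they took 1863 to 3374 counts a library. Of the 22, 16 passed the filter. With sh76, 2 fell (MT-TL1 and MT-TD) and 0 rose, where 2.16% of all genes tested fell. With sh78, 3 fell (MT-TL1, MT-TD and MT-TS1) and 0 rose, where 2.56% of all genes fell. The medians over the 16 were 0.09 and 0.08, and 10 and 9 of them lay above 0, unlike the called ones.

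MT-TL1, the leucine tRNA gene between MT-RNR2 and MT-ND1 (mitochondrial chromosome, 3230 to 3304, plus strand), was at 25.0, 24.4 and 23.8 CPM with scramble, 14.7, 17.0 and 17.9 CPM with sh76, and 17.4, 13.6 and 19.8 CPM with sh78. The controls were close together and all 6 hairpin libraries were below them, with 198 to 415 counts over the 9 libraries. Such a separation was seen in 11.7% of all genes with sh76 and 11.2% with sh78. MT-TL1 had a log2 fold change of −0.56 with sh76 (95% interval −0.84 to −0.28, adjusted p = 0.029) and −0.52 with sh78 (−0.80 to −0.24, adjusted p = 0.0366), and 0.03 between the hairpins (adjusted p = 0.943). The call with sh76 was lost when any scramble or sh76 replicate was left out (values −0.62 to −0.48, adjusted p of up to 0.0992). The call with sh78 was lost without any scramble replicate, sh76 replicate 2 or sh78 replicate 1 or 2 (lowest −0.55, highest −0.40, adjusted p of up to 0.127). With the replicate block the adjusted p was 3.69e-05 and 9.78e-05. Its neighbours on the genome, MT-RNR2 and MT-ND1, were not called.

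MT-TD and MT-TS1, the aspartate tRNA gene and a serine tRNA gene that lie side by side between MT-CO1 and MT-CO2, had few counts. MT-TD (mitochondrial chromosome, 7518 to 7585, plus strand) had 22, 33 and 28 counts with scramble, 12, 13 and 12 with sh76, and 15, 8 and 10 with sh78. MT-TS1 (7446 to 7514, minus strand) had 13, 21 and 20 counts with scramble, 4, 7 and 12 with sh76, and 3, 5 and 2 with sh78. For both genes every hairpin library, scaled for its size, was below every control, as in 11.7% of all genes with sh76 and 11.2% with sh78. For MT-TD the log2 fold change was −1.35 with sh76 (adjusted p = 0.0304) and −1.28 with sh78 (adjusted p = 0.0389). For MT-TS1 it was −1.43 with sh76 (adjusted p = 0.0884, with the replicate block 0.0169) and −2.34 with sh78 (adjusted p = 0.0155). The sh78 call of MT-TD was lost without any 1 of the 9 libraries (adjusted p of up to 0.15), with DESeq2 (0.0732), with no count filter (0.0622) and with only the groups compared in the fit (0.0559), and its sh76 call without scramble replicate 2 or 3 or any sh76 replicate (up to 0.132). The sh78 call of MT-TS1 was lost without scramble replicate 2 or 3 or sh78 replicate 1 or 3 (up to 0.0777). Since the libraries carry no strand, reads of MT-TS1 and of RNA from the other strand cannot be told apart.

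**Figure D5:**
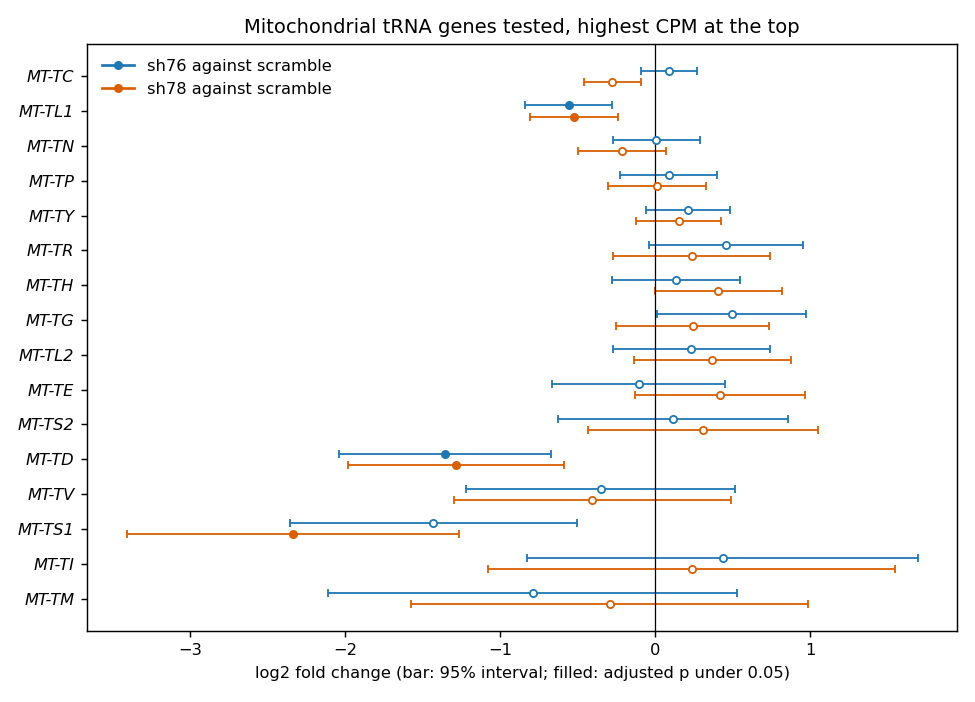
The log2 fold change against scramble of the 16 mitochondrial tRNA genes tested, ordered by mean CPM with the highest at the top; points are estimates of edgeR, filled where the adjusted p is under 0.05, and bars are 95% intervals. MT-TL1 and MT-TD are filled for both hairpins and MT-TS1 for sh78, all below 0, and the intervals widen toward the low-count genes at the bottom.

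MT-TC, the cysteine tRNA gene and the highest of the class, differed between the hairpins and not as HSD17B10 did. It was at 53.0, 62.0 and 57.9 CPM with scramble, 57.9, 64.4 and 61.4 CPM with sh76, and 44.5, 46.6 and 51.8 CPM with sh78. The sh78 libraries were below all others, a separation seen in 11.2% of all genes against scramble and 10.9% against sh76. MT-TC had a log2 fold change of −0.36 between the hairpins (adjusted p = 0.0297), −0.28 with sh78 (adjusted p = 0.0916, with the replicate block 0.000583) and 0.09 with sh76 (adjusted p = 0.658). The call between the hairpins was lost without sh76 replicate 2 or 3 or sh78 replicate 1 or 2 (values −0.36 to −0.31, adjusted p of up to 0.131). MT-TC lies on the minus strand (5761 to 5826). Since the libraries carry no strand, its reads and those of RNA from the other strand cannot be told apart.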

How the data were processed

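Poly-A RNA of 9 OVCAR3 cultures was sequenced from non-directional libraries, per the labels' protocols. The authors deposited raw counts per gene and FPKM for 58735 genes; per the submitters' processing notes, HISAT2 2.0.5, featureCounts 1.5.0-p3 and hg38 were used, with settings not given in the sources used here. The deposited FPKM equalled counts divided by gene length and a library size of 98.09% to 103% of the total count. GENCODE 29 (GRCh38) gave the same start, end and strand for 58724 of 58735 identifiers and was used for coordinates and 3′ UTRs.

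Counts were fitted with edgeR 4.0.16 in R 4.3.3 (filterByExpr with minimum count 10 and total 15, TMM, robust quasi-likelihood, 1 coefficient per group, 9 libraries). This tested 17023 genes, with Benjamini-Hochberg adjustment over all of them and calls at an adjusted p under 0.05. Intervals are those of the fit at 95%. The scripts were tested on simulated data. CPM values use the TMM factors. Replicates of a group differed beyond counting noise (chi-square per degree of freedom 5.39 to 12.3 in 9 pairs).

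Same-numbered libraries deviated together from their group means (r 0.14 to 0.39 in 9 of 9 pairs, −0.31 to 0.06 in the 18 others), so the numbers were read as pairs, and results of edgeR with a replicate block are given beside the members and the genes named where they change a call, and as counts for the lists. The alternatives were this block, RLE scaling, DESeq2 1.42.0, no and a stricter count filter, limma 3.58.1 on log2(FPKM + 1) and on log2(FPKM + 0.1), fitting only the groups compared, and leaving out each library.

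The members, lists and alternatives were chosen with earlier results of these data known. Named were the 9 members, the genes next to HSD17B10, the 5 most like it by Pearson r, and from each list the genes called with both hairpins and up to 3 called with 1. Genes named outside that rule, the lowest and highest of a list among them, and the tRNA genes were chosen after their values were seen.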

Additional observations from a re-analysis of the deposited data

Results flagged for a closer look

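BCAT1, which hands the amino group of branched-chain amino acids to a keto acid, differed between the hairpins by a direct test, with a log2 fold change of 0.69 for sh78 against sh76 (edgeR adjusted p = 0.000247). The 3 sh76 libraries were at 87.8 to 106 CPM, and the 6 libraries of the other groups at 143 to 164 CPM. MT-TC, the cysteine tRNA gene of mitochondria, also differed between the hairpins, by −0.36 (edgeR adjusted p = 0.0297). All 3 of its sh78 libraries were below the 3 of sh76, as in 10.9% of all genes. Reads of MT-TC and of RNA from the other strand cannot be told apart. HSD17B10 did not show such a difference (−0.04, edgeR adjusted p = 0.844), in a contrast that is not wholly free of how the gene was picked.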

How the results depend on the processing

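The log2 fold change of HSD17B10 stayed between 1.30 and 1.39 with sh76, 1.25 and 1.34 with sh78, and −0.09 and 0.01 between the hairpins under all 17 alternatives. Over the 25 pairs of a member and a comparison that carry a test, 421 of 425 alternative values kept the side of the threshold, and the other 4 (TRMT10C in 2 comparisons, SLIRP and LRPPRC in 1 each) passed it under the replicate block. Partners called were 1 with sh76, 1 with sh78 and 2 between the hairpins under the replicate block, and 0 to 0 when each library was left out in turn. Of the 48 other mitochondrial RNA genes the replicate block called 3, 3 and 4, and leaving out libraries 0 to 0. Calls over all genes, 610, 750 and 629, became 3467, 3388 and 3117 under the replicate block and 1149, 1212 and 1125 with no count filter. Leaving out each library gave 237 to 655 genes with sh76, 418 to 810 with sh78 and 273 to 780 between the hairpins, lowest without replicate 2 of sh76, of scramble and of sh76. Counts moved by over 1.5 times without scramble replicate 2 (313) or 3 (333) and sh76 replicate 2 (237) or 3 (339) for sh76, and without scramble replicate 2 (418) or 3 (458) and sh78 replicate 2 (469) or 3 (453) for sh78. Between the hairpins they did so without sh76 replicate 2 (273) or 3 (368) and sh78 replicate 1 (344), 2 (375) or 3 (351). Fewer libraries were fitted in each, and no other cause was tested. The same alternatives were added for BCAT1, BCAT2, MT-CYB, the 4 tRNA genes and the 5 genes most like HSD17B10 after seeing the data; no called value changed its sign, and BCAT1 kept its sh76 call and its call between the hairpins throughout. At 8 to 33 counts (MT-TD) and 2 to 21 counts (MT-TS1) a library, counting error alone leaves wide intervals.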
